A study of Mus musculus with 6 samples.

Results

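The genes described here are those of the matrix metalloproteinases (Mmp), the ADAMTS proteases, the ADAMTS-like proteins and the tissue inhibitors of metalloproteinases (Timp). They were chosen by gene symbol, from probe sets annotated to exactly 1 symbol of these families, and each gene was read from its brightest probe set. The rule found 42 genes of 18193 named on the array, namely 18 Mmp genes, 15 Adamts genes, 5 Adamtsl genes and 4 Timp genes. Of these, 31 lay above the filter on dim probe sets and were tested, and the other 11 are described by their values. The samples were epithelium and mesenchyme of the bladder neck and urethra of embryonic day 13 mice (FVB/N strain, wild-type, Theiler stage 21, sex unknown, not pooled). The layers were parted with a needle after a trypsin digestion, and their RNA was amplified in 2 rounds before hybridisation to Affymetrix whole-genome mouse arrays. Epithelium was measured on 3 arrays (numbered 1, 2 and 5) and mesenchyme on 3 arrays (numbered 1, 2 and 3), and the comparison asks which genes differ between the layers. All 6 arrays share the strain, the age and the wild-type genotype, and the labels' texts differ on the level at which the bladder was cut.

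Matrix metalloproteinases are zinc-dependent endopeptidases, secreted or held at the cell surface as inactive proforms, that cut collagens, gelatin and other proteins of the extracellular matrix. ADAMTS proteases are secreted relatives with thrombospondin repeats. Several of them cut the large proteoglycans versican and aggrecan, others trim procollagens, and ADAMTS-like proteins have the same ancillary domains but no protease domain. TIMPs bind the active site of these enzymes, and matrix turnover by this system accompanies the growth and branching of epithelia in developing organs.

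Values are quantile-normalized signals in array units, and differences are log2 values of epithelium minus mesenchyme on the log2(signal + 16) scale, with the standard error (SE) from limma over n = 3 arrays per layer. A positive difference is higher in epithelium. Folds on this scale understate the change of dim genes. A gene is said to pass the threshold where limma's p, adjusted by Benjamini-Hochberg over all genes tested, was under 0.05. With 3 arrays per layer, precision is limited by their number. Whether every array is a different embryo is not said in the labels, so the p-values measure the spread between these samples, which may be technical.

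The array labelled mesenchyme 1 stood apart from the others of its layer. Its correlation with mesenchyme 2 and 3 across the 13717 tested genes was 0.784 and 0.755, against 0.981 between mesenchyme 2 and 3. The summed signal of 4 liver markers (Alb, Afp, Ttr and Apoa1) was 200993 on it and 385 to 408 on mesenchyme 2 and 3, and that of 7 epithelial markers was 53928 against 2194 to 11153. Epithelial markers summed to 128270 to 161162 on the epithelial arrays, and 7 mesenchymal markers, Vim and Col3a1 among them, summed to 160266 to 187961 on the 3 mesenchymal arrays and 28699 to 44996 on the epithelial ones. Single markers were less uniform than these sums: Twist1 was 467 on mesenchyme 1 against 333 to 724 in epithelium and 3389 and 4294 on mesenchyme 2 and 3, Dcn overlapped between the layers, and Cdh1 was 8160 on mesenchyme 1 against 10617 on epithelium 5. Mesenchyme 1 also stood out for 3 pancreas markers (74307 against 4744 to 5269 on mesenchyme 2 and 3), 3 epidermis markers (127414 against 3094 to 5551), the lung marker Sftpc (26025 against 214 to 264) and the heart marker Myh6 (10143 against 2.87 to 7.24). Values without mesenchyme 1 are therefore given beside those with all 6 arrays.

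With all arrays, 7 of the 31 tested genes passed the threshold higher in mesenchyme (Adamts3, Adamts4, Adamts9, Adamts12, Mmp16, Timp2 and Timp4), where 4.03% of all 13717 genes tested did. None passed it higher in epithelium, where 1.95% of all genes did. At an unadjusted p under 0.05 limma gave 16 genes higher in mesenchyme and 3 in epithelium, and over all genes 1495 and 1175. Among the 31 genes, 24 had a difference below 0, and their median was -0.81 against 0.12 over all genes tested. Values of the layers did not overlap for 13 genes higher in mesenchyme (13.2% over all genes) and for 3 higher in epithelium (15.5% over all genes). Because each layer holds different cell types, fewer cells of a type and less RNA per cell cannot be told apart in these bulk samples.

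Without mesenchyme 1, 10 of the 31 genes passed the threshold higher in mesenchyme, against 8.2% of the 13576 genes tested, and 3 passed it higher in epithelium, against 6.41%. Beside the 7 genes above, these were Adamts5, Adamts15 and Adamts20 in mesenchyme and Mmp7, Mmp20 and Adamts18 in epithelium. The median of the 31 was then -0.88, against 0.02 over all genes. Values did not overlap between the layers for 18 genes higher in mesenchyme (22.3% over all genes) and 3 higher in epithelium (23.2%). Of the genes that passed, Adamts4 and Timp4 came over the filter through their mesenchymal mean alone, and Mmp7 and Mmp20 through their epithelial mean alone. Those 4 had to differ in that direction to be tested at all. Of the 13 calls made without mesenchyme 1, those of Adamts12 and Mmp7 held under every alternative that tested the gene with that array left out. Mmp7 lay below the 60th percentile filter and was not tested there. Each of the other calls was lost under at least 1 alternative, for Adamts3 and Adamts9 only in a run that left 1 mesenchymal array.

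**Figure D1:**
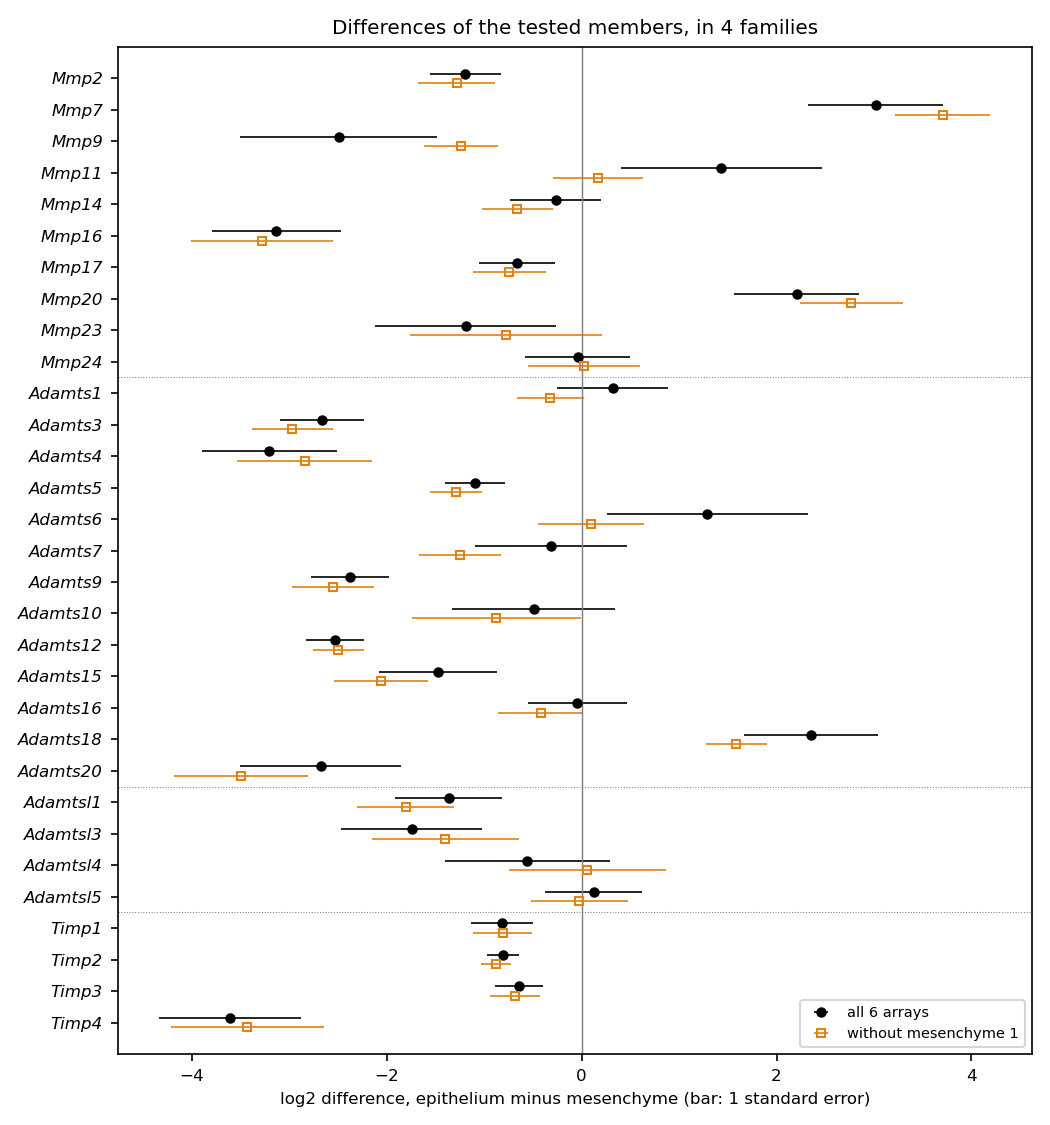
Log2 difference (epithelium minus mesenchyme, horizontal axis) of the 31 tested genes, grouped by family, with all 6 arrays (filled circles) and without mesenchyme 1 (open squares); bars are 1 standard error. Of the 31 filled circles, 24 lie left of 0, and Mmp7 moves farther to the right (3.02 to 3.71) while Mmp11 moves towards 0 (1.44 to 0.17) once mesenchyme 1 is left out.

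The ADAMTS proteases held most of the genes that passed. Of 15 Adamts genes, 13 were tested, 4 passed the threshold higher in mesenchyme with all arrays (4.03% over all genes), and 7 passed it higher in mesenchyme (8.2%) and 1 in epithelium (6.41%) without mesenchyme 1. Their median difference was -1.10 with all arrays and -1.29 without mesenchyme 1.

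Adamts12, a protease known to bind and cut the cartilage matrix protein COMP, had the smallest adjusted p of the family. Its normalized signal was 725, 554 and 570 on epithelium 1, 2 and 5, and 4174, 3678 and 3082 on mesenchyme 1, 2 and 3. All mesenchymal arrays, mesenchyme 1 included, lay far above all epithelial ones. The difference was -2.53 ± 0.298 (SE), a 5.79-fold higher level in mesenchyme (limma adjusted p = 0.00605), and 5.64-fold without mesenchyme 1 (adjusted p = 0.00171). It passed the threshold with any 1 array left out.

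Adamts3, an aminopropeptidase of procollagen that also activates the lymphatic growth factor VEGF-C, was at 275, 583 and 293 in epithelium and 1745, 2186 and 3518 in mesenchyme. The lowest mesenchymal array, mesenchyme 1, was still well above the highest epithelial one. The difference was -2.66 ± 0.436 (6.34-fold, limma adjusted p = 0.0162), and -2.97 (7.82-fold, adjusted p = 0.00419) without mesenchyme 1. Its adjusted p rose to 0.0952 or 0.0814 when epithelium 1 or 5 was left out, and to 0.0707 or 0.062 when mesenchyme 2 or 3 was.

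Several ADAMTS proteases belong to the group that cuts versican and other large proteoglycans: Adamts1, Adamts4, Adamts5, Adamts8, Adamts9, Adamts15 and Adamts20. Adamts9 measured 1783, 2753 and 1107 in epithelium and 7528, 12752 and 8119 in mesenchyme, with no overlap. The difference was -2.38 ± 0.402 (5.19-fold, limma adjusted p = 0.018), and -2.55 (5.84-fold, adjusted p = 0.00761) without mesenchyme 1. The adjusted p was 0.094 or 0.0658 when epithelium 1 or 5 was left out, 0.0863 or 0.056 when mesenchyme 2 or 3 was, and 0.083 with median centring. A dimmer Adamts9 probe set gave -0.33, and averaging the probe sets of the gene gave -1.35 (adjusted p = 0.0354).

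Adamts4, an aggrecan-cutting protease, was below the filter's level of 96.3 units on 2 of 3 epithelial arrays. Its signal was 15.2, 141 and 85.5 in epithelium and 1216, 523 and 569 in mesenchyme. Mesenchyme 1 was the highest array, and the layers did not overlap. The difference was -3.20 ± 0.691 (9.21-fold, limma adjusted p = 0.041), and -2.84 (7.17-fold, adjusted p = 0.0361) without mesenchyme 1. This was a call close to the threshold: adjusted p was 0.113, 0.0568 and 0.12 when epithelium 1, 2 or 5 was left out, 0.114 and 0.0986 when mesenchyme 2 or 3 was, and 0.0593 with an offset of 1 in place of 16.

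Adamts5, read by 3 probe sets above the filter with differences of -1.10, -1.07 and -1.11, was at 1463, 1918 and 1494 in epithelium and 2729, 4443 and 3433 in mesenchyme on the brightest. Each mesenchymal array exceeded each epithelial one. The difference was -1.10 ± 0.309 with all arrays (limma adjusted p = 0.0948) and -1.29 ± 0.266 without mesenchyme 1 (2.45-fold, adjusted p = 0.0182). The call made without mesenchyme 1 ended once epithelium 1 was also left out (limma adjusted p = 0.0813), or with median centring (0.0698). With mesenchyme 2 or 3 also left out, 1 mesenchymal array remained, and the difference was -1.11 or -1.49. Without mesenchyme 1, the dimmer probe sets at -1.07 and -1.11 had limma adjusted p of 0.0286 and 0.145 over all probe sets. A further Adamts5 probe set, below the filter, gave -0.27 with all arrays.

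For Adamts15 and Adamts20, mesenchyme 1 lay below the other mesenchymal arrays and within the epithelial range. Adamts15 measured 453, 1370 and 618 in epithelium and 970, 2544 and 3478 in mesenchyme. Its difference was -1.47 ± 0.601 with all arrays (limma adjusted p = 0.237) and -2.06 ± 0.484 without mesenchyme 1 (4.17-fold, adjusted p = 0.0309). Adamts20, best known for its part in melanoblast survival and palate closure, measured 205, 1195 and 324 in epithelium and 1025, 5230 and 4348 in mesenchyme. Its difference was -2.68 ± 0.822 with all arrays (adjusted p = 0.121) and -3.50 ± 0.688 without mesenchyme 1 (11.3-fold, adjusted p = 0.0151). Both calls ended when epithelium 1 was also left out, at a limma adjusted p of 0.0975 for Adamts15 and 0.0511 for Adamts20. That of Adamts15 was also 0.0777 without epithelium 5, 0.0625 with median centring and 0.0557 with no variance trend. With mesenchyme 2 or 3 also left out, 1 mesenchymal array remained. The differences were then -2.30 or -1.84 for Adamts15 and -3.37 or -3.63 for Adamts20.

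Adamts1 gave no difference between the layers that passed. It was at 9431, 14611 and 6642 in epithelium and 3208, 14142 and 10373 in mesenchyme, so the layers overlapped and mesenchyme 1 was the lowest array. The difference was 0.32 ± 0.572 (limma adjusted p = 0.79), and -0.32 ± 0.340 (adjusted p = 0.632) without mesenchyme 1, so its sign turned with that array. Adamts8, the other gene of the proteoglycan-cutting group, lay below the filter, at 19.3 to 180 units over the 6 arrays. In the RefSeq annotation Adamts1 and Adamts5 are neighbours on chromosome 16, and Adamts15 and Adamts8 on chromosome 9.

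Adamts18 was the only Adamts gene called higher in epithelium in either comparison. Its signal was 2554, 2400 and 2340 in epithelium and 140, 1102 and 613 in mesenchyme. The epithelial arrays were close together and above every mesenchymal array, while mesenchyme 1 was 5.37-fold below the mean of mesenchyme 2 and 3. The difference was 2.35 ± 0.686 with all arrays (5.11-fold, limma adjusted p = 0.105) and 1.59 ± 0.315 without mesenchyme 1 (adjusted p = 0.0156). A second Adamts18 probe set, below the filter, read 111 to 116 in epithelium and 4.59, 39.3 and 24.1 in mesenchyme. Without mesenchyme 1 the limma adjusted p of the brighter one was 0.0735 when epithelium 1 was also left out, and 0.0629 with median centring. With mesenchyme 3 also left out, its difference rested on 1 mesenchymal array and was 1.16.

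The remaining tested Adamts genes, Adamts6, Adamts7, Adamts10 and Adamts16, did not pass in either comparison, with differences of 1.29, -0.31, -0.49 and -0.04 with all arrays and 0.10, -1.25, -0.88 and -0.42 without mesenchyme 1. Adamts7, a close relative of Adamts12, was at 495, 314 and 828 in epithelium and 173, 1164 and 1209 in mesenchyme. Only mesenchyme 1 lay below the epithelial arrays, and without it the difference was -1.25 ± 0.424 (limma adjusted p = 0.109). Adamts6 measured 527, 977 and 259 in epithelium and 25.1, 437 and 529 in mesenchyme, and its difference went from 1.29 to 0.10 without mesenchyme 1. Adamts19 lay below the filter.

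**Figure D2:**
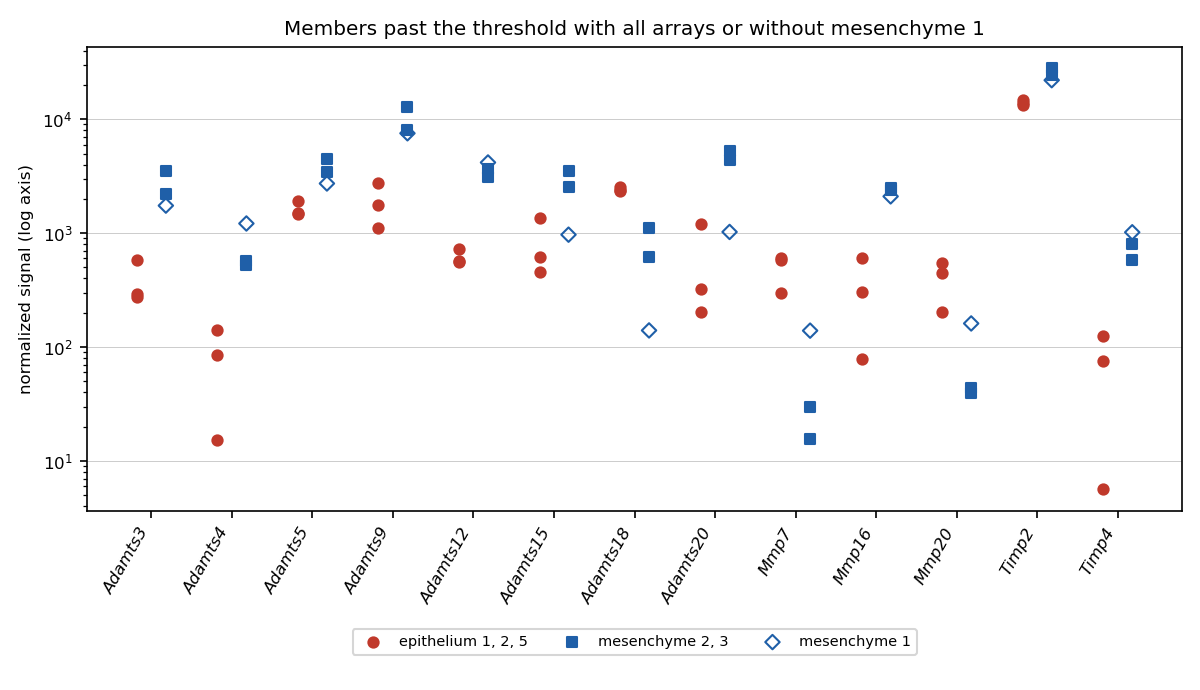
Normalized signal (vertical log axis) of the 13 genes that passed the threshold with all arrays or without mesenchyme 1, with 1 point for each of the 3 epithelial and 3 mesenchymal arrays and mesenchyme 1 marked on its own. Mesenchyme 1 sits with the other mesenchymal arrays for Adamts12 (4174 beside 3678 and 3082) and away from them for Adamts20 (1025 beside 5230 and 4348) and Mmp7 (139 beside 29.8 and 15.5).

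None of the 4 tested ADAMTS-like genes passed the threshold with all arrays or without mesenchyme 1. Over all genes, 1.95% passed in epithelium and 4.03% in mesenchyme with all arrays, and 6.41% and 8.2% without mesenchyme 1. With 4 genes, a count of 0 therefore says little about the family. Limma's unadjusted p with all arrays was under 0.05 for Adamtsl1 (0.0408) and Adamtsl3 (0.0462). Adamtsl1 (punctin) measured 403, 877 and 267 in epithelium and 696, 1738 and 1428 in mesenchyme. Mesenchyme 1 fell within the epithelial range and the other 2 mesenchymal arrays above it. The difference was -1.36 ± 0.549 (adjusted p = 0.231) and -1.81 ± 0.497 without mesenchyme 1 (adjusted p = 0.0551). A dimmer Adamtsl1 probe set above the filter had the opposite sign. It gave 0.46 with all arrays and 0.26 without mesenchyme 1 (limma adjusted p = 0.734 and 0.874 over all probe sets). Adamtsl3 was at 157, 255 and 36.8 in epithelium and 731, 496 and 226 in mesenchyme, where 1 array fell within the epithelial range (difference -1.74 ± 0.726, limma adjusted p = 0.247, and -1.40 with 0.306 without mesenchyme 1). Adamtsl4, a fibrillin-binding protein, and Adamtsl5 had differences of -0.56 and 0.12, and 0.06 and -0.02 without mesenchyme 1, and Adamtsl2 lay below the filter. A second Adamtsl5 probe set read 250, 254 and 223 in epithelium and 149, 52.4 and 10.7 in mesenchyme, a difference of 1.94 (limma adjusted p = 0.216 over all probe sets) and, without mesenchyme 1, 2.56 (adjusted p = 0.027).

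Among the matrix metalloproteinases, 10 of 18 were tested. With all arrays Mmp16 passed higher in mesenchyme (4.03% over all genes) and none in epithelium (1.95%). Without mesenchyme 1, Mmp16 passed in mesenchyme (8.2% over all genes) and Mmp7 and Mmp20 in epithelium (6.41%). The median difference was -0.46 with all arrays and -0.70 without mesenchyme 1, against 0.12 and 0.02 over all genes.

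The gelatinases Mmp2 and Mmp9 cut denatured collagen and basement membrane collagen. Mmp2, typically a product of mesenchymal cells, measured 14427, 7942 and 22957 in epithelium and 27689, 34160 and 33298 in mesenchyme. Every mesenchymal array was above every epithelial one, but the epithelial arrays spread widely. The difference on this probe set, of a kind that can match several transcripts, was -1.19 ± 0.363 (limma adjusted p = 0.119), and -1.28 without mesenchyme 1 (adjusted p = 0.0814). A second Mmp2 probe set, of the unique kind, measured 6912, 5804 and 8687 in epithelium and 15356, 27923 and 25618 in mesenchyme. Its difference of -1.66 had a limma adjusted p of 0.0249 in a fit over all 27022 probe sets above the filter, and -1.91 with an adjusted p of 0.0027 without mesenchyme 1. The call for Mmp2 thus depends on the probe set read.

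Mmp9, known from osteoclasts and leukocytes, measured 203, 215 and 127 in epithelium and 6326, 477 and 396 in mesenchyme. Mesenchyme 1 was 14.1-fold above the mean of the other mesenchymal arrays, which themselves lay above the epithelial range. The difference was -2.49 ± 1.01 with all arrays (limma adjusted p = 0.234) and -1.24 ± 0.379 without mesenchyme 1 (adjusted p = 0.0787). A second Mmp9 probe set, below the filter, read 3133 on mesenchyme 1 and 40.8 and 119 on mesenchyme 2 and 3.

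The collagenase Mmp13, a protease of hypertrophic cartilage and bone, was bright on a single array. Its signal was 13.1, 7.32 and 117 in epithelium and 4442, 5.15 and 30.8 in mesenchyme, so that mesenchyme 1 was 7.15 log2 units above the mean of the other 2 mesenchymal arrays. Its mean fell below the filter, and it was not tested. Sums of osteoclast, leukocyte, cartilage and bone markers were also higher on mesenchyme 1, as were those of the liver, pancreas, epidermis, lung and heart markers given above. The summed signal of 4 osteoclast markers was 30376 there against 3133 to 3947 on mesenchyme 2 and 3 and 1303 to 1933 in epithelium, with 1 of the 4 markers (Ctsk, at 25916) over 4-fold above all other arrays and Calcr at or below 78.6 on every array. The sum of 7 leukocyte markers was 42953 against 7670 to 10959 on mesenchyme 2 and 3 and 2769 to 6462 in epithelium, with 3 of the 7 over 4-fold above. That of 6 cartilage markers was 33173 against 7208 to 11097 and 2413 to 3739 (3 of 6 over 4-fold), and that of 4 bone markers 5290 against 642 to 749 and 289 to 433 (2 of 4 over 4-fold). The sum of 3 erythroid markers went the other way, at 7734 on mesenchyme 1 against 57759 to 57812 on mesenchyme 2 and 3. Of these 3, 1 was over 4-fold above all other arrays on mesenchyme 1. The part of any of these cell types in the Mmp9 and Mmp13 values was not tested.

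**Figure D3:**
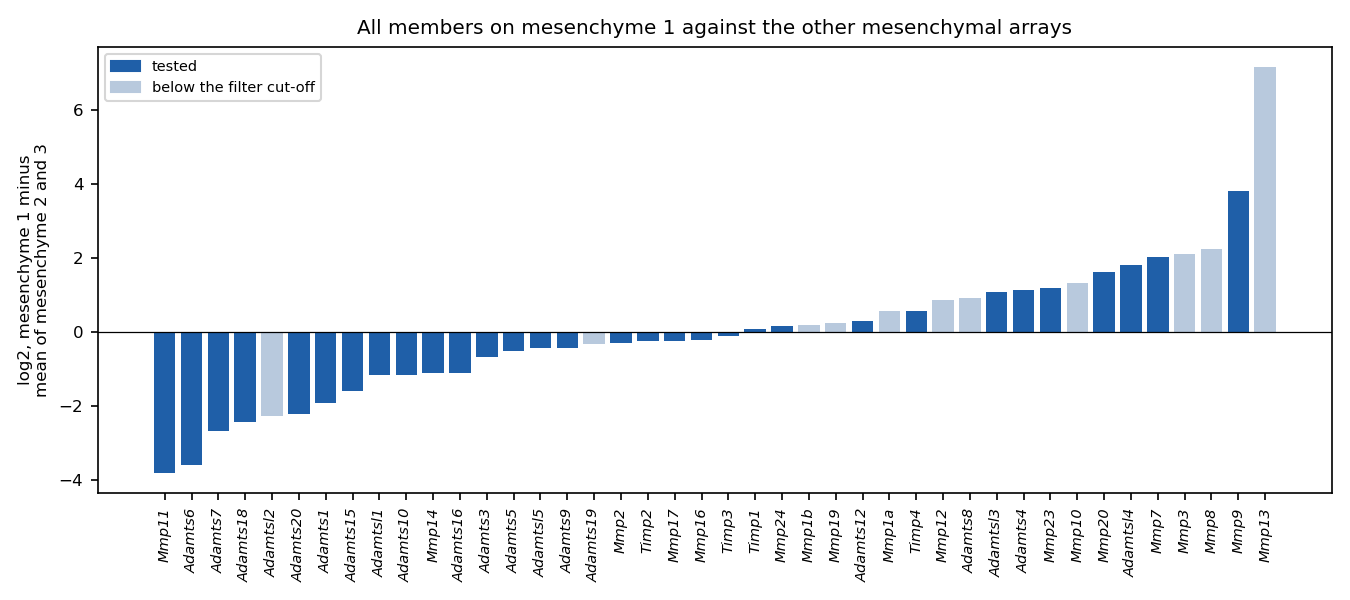
Log2 difference between mesenchyme 1 and the mean of mesenchyme 2 and 3 (vertical axis) for all 42 genes, as 1 bar per gene, dark where the gene was tested and pale where it lay below the filter; there is no error bar because each bar rests on a single array. Mmp13 (7.15) and Mmp9 (3.81) are the highest bars, and Mmp11 (-3.80) and Adamts6 (-3.60) the lowest.

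Over the 42 genes, mesenchyme 1 was more than 4-fold above the mean of mesenchyme 2 and 3 for 5 genes (Mmp3, Mmp7, Mmp8, Mmp9 and Mmp13) and more than 4-fold below it for 6 (Mmp11, Adamts6, Adamts7, Adamts18, Adamts20 and Adamtsl2). Among these, Mmp3, Mmp8, Mmp13 and Adamtsl2 lay below the filter. The share over all genes was not computed, and mesenchyme 1 stood apart across all tested genes, so these counts cannot be read as a trait of the families. Mesenchyme 2 and 3 differed by more than 4-fold from each other for 0 of the 42. Their median absolute difference was 0.42 log2 units.

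The membrane-type metalloproteinases are anchored at the cell surface, and Mmp14 among them activates the Mmp2 proform. Mmp16, which shares that activity, was at 302, 608 and 78.7 in epithelium and 2103, 2483 and 2376 in mesenchyme. The mesenchymal arrays were close together and all above the epithelial ones. The difference was -3.13 ± 0.66 (8.77-fold, limma adjusted p = 0.0376), and -3.28 (9.71-fold, adjusted p = 0.0246) without mesenchyme 1.

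Other Mmp16 probe sets did not give that size. One measured 268, 851 and 425 in epithelium and 149, 1245 and 1256 in mesenchyme, a difference of -0.43, and another gave -1.47, with limma adjusted p of 0.83 and 0.301 in the fit over all probe sets. The mean of the Mmp16 probe sets differed by -1.68 (adjusted p = 0.172). On the brightest probe set, leaving out epithelium 1 or 5 gave an adjusted p of 0.138 or 0.0634, and leaving out mesenchyme 2 or 3 gave 0.13 or 0.0995. Without mesenchyme 1, the probe sets at -0.43 and -1.47 gave -1.45 and -1.81 (limma adjusted p = 0.129 and 0.145 over all probe sets). The one at -1.45 was then the brightest of the gene, and read from it Mmp16 did not pass (limma adjusted p = 0.1 over genes).

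Mmp14 itself measured 528, 302 and 486 in epithelium and 302, 556 and 812 in mesenchyme. The layers overlapped through mesenchyme 1, and the difference was -0.26 ± 0.467 (limma adjusted p = 0.787), and -0.66 (adjusted p = 0.322) without that array. Mmp17, Mmp23 and Mmp24 had differences of -0.66, -1.19 and -0.04 with all arrays and -0.74, -0.78 and 0.03 without mesenchyme 1, and none passed. Another Mmp23 probe set above the filter gave -2.56, and -1.80 without mesenchyme 1 (limma adjusted p = 0.226 and 0.297 over all probe sets). Another of Mmp24 gave 0.22, and 0.19 without mesenchyme 1. Mmp11, a metalloproteinase that is activated inside the cell by furin, measured 6285, 2588 and 7680 in epithelium and 304, 4128 and 4794 in mesenchyme. Mesenchyme 1 alone was low, and the difference was 1.44 ± 1.04 with all arrays (limma adjusted p = 0.494) and 0.17 ± 0.461 without it (adjusted p = 0.873).

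In the RefSeq annotation of assembly GRCm38.p6, 10 Mmp genes lie next to each other on chromosome 9, in the order Mmp13, Mmp12, Mmp1b, Mmp3, Mmp1a, Mmp10, Mmp8, Mmp27, Mmp20 and Mmp7. Of these, 9 were measured and 2 lay above the filter, Mmp20 and Mmp7, which are neighbours at one end. Promoter sequences from RefSeq are shown for these 2 and for Mmp13 at the other end of the run. Each line holds the 250 bases upstream of an annotated start site, on the plus strand of GRCm38.p6, at chr9:7691840-7692089 for Mmp7, chr9:7627981-7628230 for Mmp20 and chr9:7272264-7272513 for Mmp13. Capitals mark the AP-1 motif (TGACTCA, or TGAGTCA read from the opposite strand) and the TATA motif (TATAAA, searched on the gene's strand only).
Mmp7: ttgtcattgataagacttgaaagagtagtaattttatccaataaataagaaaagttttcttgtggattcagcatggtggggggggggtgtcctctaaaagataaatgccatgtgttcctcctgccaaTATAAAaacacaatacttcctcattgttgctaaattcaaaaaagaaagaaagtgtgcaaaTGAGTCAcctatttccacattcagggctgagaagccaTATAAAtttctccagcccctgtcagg
Mmp20: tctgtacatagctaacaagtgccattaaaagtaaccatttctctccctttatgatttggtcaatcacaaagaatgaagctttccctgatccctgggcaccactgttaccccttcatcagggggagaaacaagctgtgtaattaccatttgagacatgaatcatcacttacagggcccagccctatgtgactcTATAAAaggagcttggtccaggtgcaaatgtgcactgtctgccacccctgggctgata
Mmp13: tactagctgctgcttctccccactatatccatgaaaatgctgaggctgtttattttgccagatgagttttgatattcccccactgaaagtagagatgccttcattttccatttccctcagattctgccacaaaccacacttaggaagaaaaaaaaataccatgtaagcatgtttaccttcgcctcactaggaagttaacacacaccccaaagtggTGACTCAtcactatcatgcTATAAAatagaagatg
The AP-1 motif started at base -63 of the Mmp7 promoter and -35 of the Mmp13 promoter, counted from the start site, and these letters were not in the Mmp20 window. A second annotated start of Mmp7, with its window at chr9:7692091-7692340, held neither motif. TATA motifs started at -123 and -26 in Mmp7, -58 in Mmp20 and -16 in Mmp13. The AP-1 motif was in 4.46% and the TATA motif in 7.59% of all 32851 promoters of this length. Of the 27 genes of these families with a promoter entry, 7 of the 9 in the chromosome 9 run held the AP-1 motif and 7 the TATA motif, against 0 and 2 of the other 18. A match is a stretch of letters, not a measured binding site.

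Mmp7 (matrilysin), a small secreted protease of glandular epithelia, measured 300, 611 and 587 in epithelium and 139, 29.8 and 15.5 in mesenchyme. All epithelial arrays were above all mesenchymal ones, and mesenchyme 1 was the highest of its layer. The difference was 3.02 ± 0.691 with all arrays (8.11-fold, limma adjusted p = 0.0502) and 3.71 ± 0.489 without mesenchyme 1 (13.0-fold, adjusted p = 0.00325). With all arrays its adjusted p fell on the other side of the threshold under several settings, among them an offset of 64 (0.0412) and median centring (0.0403). Without mesenchyme 1 it passed with any 1 epithelial array also left out. Epithelial markers were also higher on mesenchyme 1 than on the other mesenchymal arrays, as given above, and their part in its Mmp7 value was not tested.

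Mmp20 (enamelysin), known as the protease of forming tooth enamel, measured 451, 549 and 204 in epithelium and 161, 39.3 and 44.2 in mesenchyme. The layers did not overlap, and mesenchyme 1 again lay nearest to the epithelial arrays. The difference was 2.21 ± 0.639 (limma adjusted p = 0.103) and 2.77 ± 0.524 without mesenchyme 1 (6.81-fold, adjusted p = 0.013). That call ended when epithelium 1 was also left out (limma adjusted p = 0.0641). With mesenchyme 2 or 3 also left out, 1 mesenchymal array remained, and the difference was 2.69 or 2.83.

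The other 7 measured genes of the run, which include the collagenases Mmp1a, Mmp1b and Mmp8 and the stromelysins Mmp3 and Mmp10, were below the filter. The table holds no detection calls, so it gives no bound for a dim probe set. Apart from Mmp13, the 10 genes of these families below the filter reached at most 358 units on any array.

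**Figure D4:**
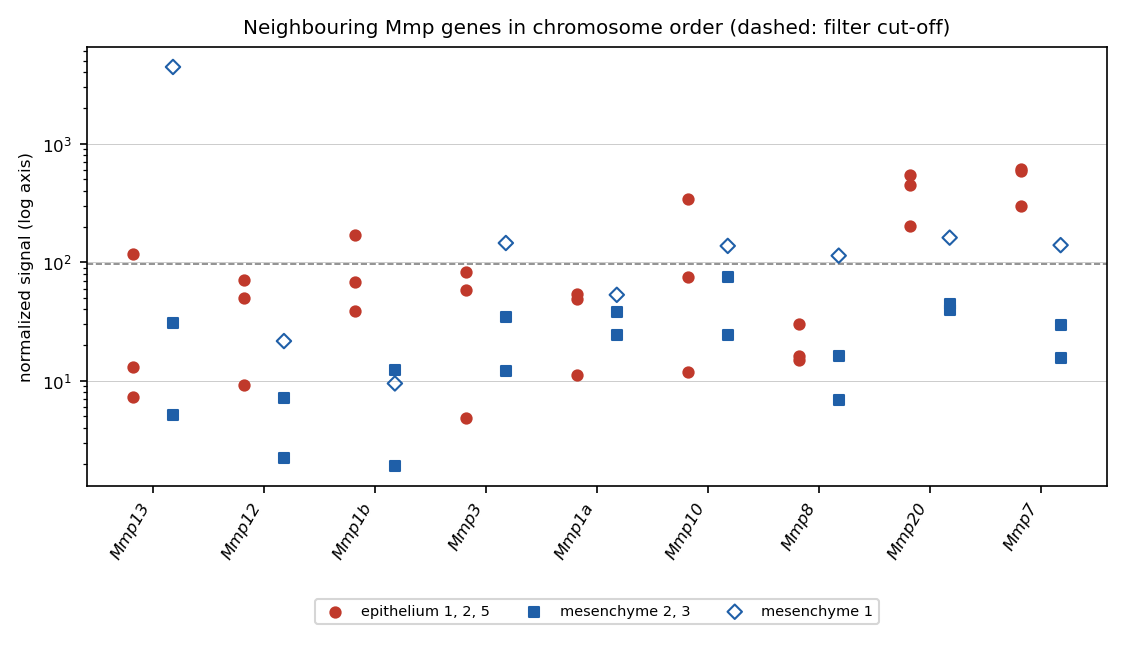
Normalized signal (vertical log axis) of the 9 measured Mmp genes of chromosome 9, in their order along the chromosome, with 1 point per array and the filter cut-off of 96.3 units as a dashed line. Mmp20 and Mmp7 at the right have all 3 epithelial arrays above the line, and Mmp13 at the left has mesenchyme 1 at 4442.

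On their brightest probe sets, all 4 TIMP genes had higher values on each mesenchymal array than on each epithelial array. Of these genes, 2 passed the threshold, with all arrays and without mesenchyme 1. Over all genes, 13.2% did not overlap and 4.03% passed in that direction with all arrays, and 22.3% and 8.2% without mesenchyme 1. The median difference of the family was -0.81, and -0.84 without mesenchyme 1. Timp4 measured 75.7, 124 and 5.63 in epithelium and 1018, 579 and 800 in mesenchyme. The epithelial values straddle the filter's level of 96.3 units. The difference was -3.61 ± 0.729 (12.2-fold, limma adjusted p = 0.0329), and -3.43 (10.8-fold, adjusted p = 0.0277) without mesenchyme 1. Leaving out epithelium 1 or 5 gave an adjusted p of 0.11 or 0.0517, leaving out mesenchyme 2 or 3 gave 0.103 or 0.0997, and an offset of 1 gave 0.0702. A second Timp4 probe set was below the filter, at 35 to 62.6 units in epithelium and 34.8 to 40.9 in mesenchyme, and did not show the difference.

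Timp2, which also takes part in the activation of the Mmp2 proform at the cell surface, measured 14882, 13446 and 13928 in epithelium and 22016, 24231 and 28129 in mesenchyme. Both layers were bright on this probe set and each was tight. The difference was small, -0.81 ± 0.166 (1.75-fold, limma adjusted p = 0.0344), and -0.88 (1.84-fold, adjusted p = 0.00908) without mesenchyme 1. With median centring it was -0.51 (adjusted p = 0.515), with no normalization adjusted p was 0.0752, the mean of its probe sets gave -0.63 (0.24), and no variance trend gave an adjusted p of 0.132. Without mesenchyme 1, 3 of these settings ended the call, with adjusted p of 0.114 with median centring, 0.117 for the mean of probe sets and 0.0536 with no variance trend. Adjusted p was 0.134, 0.0719 and 0.122 without epithelium 1, 2 and 5, and 0.15 and 0.157 without mesenchyme 2 and 3.

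Timp1, which inhibits most secreted metalloproteinases, was at 937, 809 and 1358 in epithelium and 1860, 1723 and 1786 in mesenchyme. The difference was -0.81 ± 0.317 (limma adjusted p = 0.215), and -0.81 (adjusted p = 0.142) without mesenchyme 1. Timp3, which binds to the matrix and also inhibits ADAMTS proteases, was at 8027, 6759 and 5202 in epithelium and 9733, 11952 and 9313 in mesenchyme. On these probe sets the layers did not overlap for either gene, and neither passed (Timp3 difference -0.65 ± 0.247, limma adjusted p = 0.208, and 0.135 without mesenchyme 1).

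Each TIMP gene overlaps another gene in the RefSeq annotation: Timp1 lies with Syn1, Timp3 with Syn3 and Timp4 with Syn2, the synapsin genes of nerve terminals, and Timp2 with Cep295nl. Syn2 measured 66.9, 89.4 and 135 in epithelium and 2724, 1245 and 1118 in mesenchyme, a difference of -3.85 (14.4-fold, limma adjusted p = 0.00711), and -3.51 (adjusted p = 0.00182) without mesenchyme 1. Syn3 differed by -0.71 (adjusted p = 0.21) and without mesenchyme 1 by -0.73 (0.0965). Syn1 differed by -1.31 (adjusted p = 0.342) and was not tested without mesenchyme 1. The sum of 4 neuronal markers was 23286 to 33751 on the mesenchymal arrays and 500 to 967 on the epithelial ones. Whether a Timp4 probe set also reads Syn2 transcripts was not tested.

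The 42 genes had 78 probe sets. Of the 31 tested genes, 12 had more than 1 probe set above the filter, and in 9 of these all had differences of the same sign. In 0 of the 12 were probe sets called in opposite directions, a count that needs both to pass the threshold.

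Other genes of the same proteolytic network were read from a list of 53 genes, of which 49 were measured and 40 tested. With all arrays 1 passed the threshold higher in epithelium and 11 higher in mesenchyme, with a median difference of -0.77, against 1.95%, 4.03% and a median of 0.12 over all genes. Without mesenchyme 1 the counts were 1 and 11 of 38 tested, with a median of -0.35, against 6.41%, 8.2% and 0.02 over all genes. Of the 12 called with all arrays, 4 came over the filter through the mean of a single layer, Adam28 through epithelium and Pcolce2, Ncan and Vwf through mesenchyme, and so had to differ in that direction to be tested. Without mesenchyme 2 the mesenchymal count was 2, without epithelium 5 it was 3, without epithelium 1 or mesenchyme 3 it was 4, and without epithelium 2 it was 7.

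Several proteins of the ADAM family, though not all of those listed, release membrane proteins from the cell surface. Of the listed Adam genes 12 were tested, with 1 passing higher in epithelium and 4 in mesenchyme. Adam28 was the epithelial one, at 673, 1034 and 977 in epithelium and 79.3, 84.5 and 107 in mesenchyme. Mesenchyme 1 lay with the other mesenchymal arrays. The difference was 3.08 ± 0.379 (8.47-fold, limma adjusted p = 0.00707), and 3.06 (adjusted p = 0.00191) without mesenchyme 1. Adam12, a protease of mesenchyme and fusing muscle, had the largest difference of the 12, -4.64 (25.0-fold, adjusted p = 0.00455), and -4.67 (0.00182) without mesenchyme 1. Adam23 and Adam19 were 5.43-fold and 3.93-fold higher in mesenchyme (adjusted p = 0.0126 and 0.0266), and 4.98-fold and 4.34-fold without mesenchyme 1 (0.00498 and 0.00854).

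Reck, a membrane-anchored inhibitor of metalloproteinases, was the 1 gene called among 5 tested regulators. It measured 876, 2096 and 1050 in epithelium and 5458, 10097 and 9606 in mesenchyme, with no overlap. The difference was -2.68 ± 0.426 (6.43-fold, limma adjusted p = 0.015), and without mesenchyme 1 it was -3.01 (adjusted p = 0.00325). Thsd4, a fibrillin-binding ADAMTS-like protein, passed only without mesenchyme 1 (-2.70, limma adjusted p = 0.00478; with all arrays 0.1). Of 5 tested astacin proteinases and procollagen C-proteinase enhancers, the enhancers Pcolce2 (-5.62, adjusted p = 0.00427) and Pcolce (-3.40, adjusted p = 0.011) passed higher in mesenchyme. Without mesenchyme 1 Pcolce differed by -3.48 (adjusted p = 0.00602), and Pcolce2, at 5.33 to 16.4 in epithelium and 747 to 2488 in mesenchyme, fell below the filter and was not tested. The proteinase they enhance, Bmp1, differed by -0.11 ± 0.335 (adjusted p = 0.879), and -0.35 (0.464) without mesenchyme 1.

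Of 4 tested genes of the plasminogen system, Plat, the tissue plasminogen activator, was 5.28-fold higher in mesenchyme (-2.40, limma adjusted p = 0.0117), and 6.69-fold without mesenchyme 1 (0.00124). Of 5 tested proprotein convertases, which activate many metalloproteinase proforms, 0 passed by limma with all arrays or without mesenchyme 1. For so few genes, at the shares over all genes given above, that count says little about them. Furin measured 581, 580 and 644 in epithelium and 610, 449 and 499 in mesenchyme, differing by 0.22 ± 0.319 (adjusted p = 0.743), or 0.35 (0.49) once mesenchyme 1 was left out. Of 9 tested substrates and partners, Fbn2 (fibrillin of early microfibrils, 4.34-fold, adjusted p = 0.015), Ncan (neurocan, 22.1-fold, 0.0422) and Vwf (von Willebrand factor of endothelium, 19.0-fold, 0.0155) passed higher in mesenchyme. Without mesenchyme 1 these were 4.34-fold, 14.5-fold and 15.7-fold higher (adjusted p = 0.00974, 0.0371 and 0.0119). Versican (Vcan), cut by several of the ADAMTS proteases above, measured 21293, 19805 and 19212 in epithelium and 17007, 23534 and 27659 in mesenchyme. The layers overlapped through mesenchyme 1 alone. The difference was -0.15 ± 0.208 (limma adjusted p = 0.726), and -0.34 ± 0.145 (adjusted p = 0.191) without that array.

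The mesenchymal arrays also held markers of other cell types that express proteases and inhibitors of these families. The sum of 6 endothelial markers was 12622 to 16247 on the mesenchymal arrays and 719 to 2249 on the epithelial ones, and that of 4 smooth muscle markers 22527 to 51354 and 4423 to 10468. The sum of 4 striated muscle markers was 11174 and 20935 on mesenchyme 2 and 3, 118044 on mesenchyme 1 and 595 to 909 in epithelium. The part of each cell type in the mesenchymal values of the genes above was not tested.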

How the data were processed

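The authors deposited 1 signal intensity per probe set and array without taking logarithms. The submitters' processing notes name GCOS, Affymetrix's own program; which version was run is not given in the sources used here. Each array's mean without the top and bottom 2% of probe sets was 1500 in the deposited intensities, so they carry a common scaling. Of 45101 probe sets, 64 controls were left out, 34945 name 1 gene by the platform annotation, 932 several and 9160 none. All 42 genes described were matched to RefSeq (GRCm38.p6) by identifier.

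Intensities were quantile normalized as log2(signal + 16). The 6 array medians were 126 to 254 before that step. Genes were kept where the mean log2 value exceeded the 40th percentile (96.3 units). The layer difference was fitted in R 4.3.3 by limma 3.58.1, using lmFit and then eBayes with an intensity trend and no covariates, and p-values were adjusted by Benjamini-Hochberg over every tested gene. The code was tested on simulated data. Values below array background have no bound, since the table used has no detection calls.

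The genes described, lists, tests and alternatives were chosen with earlier results of these data known. All genes of these families may be named, with values on every array for those past the threshold and the 2 brightest of each family. Network genes are the up to 3 per list and direction with the largest difference past the threshold. Adamts6, Adamts7, Adamtsl1, Adamtsl3, Mmp9, Mmp13, Mmp14, Bmp1, Furin, Vcan, Thsd4 and the Syn genes were described after their values were seen. Adamts2, Adamts13, Adamts14, Adamts17, Mmp15, Mmp21, Mmp25, Mmp27 and Mmp28 were not analysed here. Alternatives were other offsets, filters, normalizations, probe set rules, variance models, array weights, a block for the replicate number, and leaving out single arrays. The fit over all probe sets, and the alternatives combined with leaving out mesenchyme 1, were added after seeing the data.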

Additional observations from a re-analysis of the deposited data

How the results depend on the processing

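No tested difference past the threshold turned its direction under any alternative. Over all genes, 820 passed, 5109 with array quality weights, and 143 to 1983 with 1 array left out (1983 without mesenchyme 1). The weights were very uneven, from 0.0501 for mesenchyme 2 to 26.7 for epithelium 1. Of the genes described, those higher in mesenchyme numbered 7, but 4 without a filter (Adamts4, Mmp16 and Timp2 lost, limma adjusted p = 0.0567, 0.0513 and 0.0503), 15 with weights and 1 to 10 with 1 array left out. Those higher in epithelium numbered 0, but 1 with an offset of 64, median centring, the mean of probe sets, only unique probe sets, or probe sets chosen without mesenchyme 1 (Mmp7 in each), 3 with weights and 0 to 3 with 1 array left out. Of the 7 calls, 6 were lost without epithelium 1, epithelium 5, mesenchyme 2 or mesenchyme 3, and 2 without epithelium 2. Of the network genes, 11 were higher in mesenchyme, but 7 with median centring, 17 with weights and 2 to 11 with 1 array left out. With the 60th percentile filter or only unique probe sets, limma's epithelial count was 0 (0 in each at an unadjusted p under 0.05, beside 9 and 11 higher in mesenchyme). The epithelial one, Adam28, did not fail a test there: the probe set read for it was left out by each of these rules. Without mesenchyme 1 and 1 epithelial array, the counts of the genes described were 5 to 13 in mesenchyme and 1 to 4 in epithelium. Runs that also left out mesenchyme 2 or 3 kept 1 mesenchymal array, so their counts are not given. The median difference over all genes was 0.12, 0.06 without normalization and 0.23 with median centring. Without detection calls, signal over background could not be assessed.

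The layers share the replicate numbers 1 and 2 only. Deviations from the layer means correlated at -0.05 and -0.02 between arrays of the same number. No label says that a number marks a shared embryo and there are only 2 such pairs, so the samples were not treated as paired. With the number as a replicate block, limma called 0 of all genes (1460 at an unadjusted p under 0.05), 0 of the genes described in mesenchyme and 0 in epithelium (9 and 4 unadjusted), and 0 network genes in either direction (13 and 1 unadjusted).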
